A study of Mus musculus with 12 samples.

Results

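The genes described here encode the parts of the desmosome, the junction that rivets neighbouring epithelial cells together. They are Dsg2, Dsg3, Dsc2, Dsc3, Dsp, Pkp1, Pkp2, Pkp3, Jup and Perp, 10 of the 22180 genes measured. Each was taken by its symbol in the platform annotation, with the brightest probe set where a gene had several, and all 10 were measured. The list, and its division into the stratified-type genes Dsg3, Dsc3 and Pkp1 and the general genes Dsg2 and Dsp, was chosen by the levels of these genes on these same arrays, in earlier results. The levels, differences and adjusted p-values below therefore describe the chosen genes and are not independent evidence that desmosome genes as a class moved one way.

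RNA levels were measured on 12 Affymetrix arrays of mouse cells, 3 in each of 4 groups that the series calls stages. They were leukemia cells taken from spleen (the series names a NOTCH1 mouse model), colonies marked GFP+ that the labels call partially reprogrammed, colonies marked GFP- that they call reprogrammed, and iPS (induced pluripotent stem) cells called established. All 4 groups carried the mouse genotype R26rtTA;Col1a12lox-4F2A, in which a tetracycline-responsive transactivator drives a cassette of Pou5f1, Sox2, Klf4 and Myc, the reprogramming factors, so no group lacks the cassette. The colonies and iPS cells are labelled as coming from the leukemia cells, the iPS cells were grown in mouse embryonic stem cell medium, and the leukemia titles all carry 1 leukemia number. The titles call the arrays of each group biological replicates. The labels do not give what GFP marks, whether the factors were being induced, or whether these replicates are separate animals or cultures. The p-values then measure only the spread between arrays.

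A desmosome is built in layers. Desmogleins (Dsg) and desmocollins (Dsc) are cadherins that cross the membrane and bind those of the next cell. Plakoglobin (Jup) and the plakophilins (Pkp) hold their tails, and desmoplakin (Dsp) ties this plaque to keratin filaments inside the cell. Dsg2, Dsc2, Pkp2, Dsp and Jup are found in simple epithelia and heart muscle, whereas Dsg3, Dsc3 and Pkp1 are typical of stratified epithelia such as skin and the lining of the mouth. Blood cells do not form desmosomes. Pluripotent stem cells grow as epithelium-like colonies held mainly by E-cadherin.

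The deposited values are log2 levels of probe sets, so a difference of 1 is a doubling, and 4 to 5 is near the low end of what these genes showed. No detection values were used, so whether a low level is above background was not measured. Levels of different genes come from different probe sets and are not set against each other. Differences are log2 ± standard error from a limma fit to all 12 arrays, with n = 3 arrays per group, and a gene is called where its Benjamini-Hochberg adjusted p over all 22180 genes is under 0.05.

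Several arrays bear on every result. The leukemia arrays correlated with each other across genes at 0.994 and the iPS arrays at 0.995, whereas GFP-positive replicate 3 correlated at 0.955 and 0.937 with replicates 1 and 2, and GFP-negative replicate 1 at 0.933 and 0.887 with replicates 2 and 3. The mean level of 6 measured T cell markers was 5.39 to 7.07 on the colony and iPS arrays and 10.86 to 10.90 on the leukemia arrays. The mean of 8 naive pluripotency genes was 9.62 to 9.69 on the iPS arrays, 9.43 and 9.81 on GFP-negative replicates 2 and 3, but 6.41 on GFP-negative replicate 1. The genes of that list went different ways there. Nanog, a core pluripotency factor, measured 5.07, against 4.32 to 4.99 in leukemia, whereas Tdgf1, a Nodal co-receptor, measured 9.75, against 4.79 to 5.35, and the transcription factor Tfcp2l1 8.72, against 4.27 to 4.98. The mean of 8 macrophage markers was 9.08 on GFP-positive replicate 3 and 6.08 to 7.88 on the other colony arrays. The mean of 8 fibroblast markers was 7.44 to 7.58 on the iPS arrays. It was 5.903 to 6.015 on the leukemia arrays and 5.597 to 6.645 on the GFP-positive arrays. The part of these markers in the iPS differences was not tested.

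Each desmosome gene was lower on every leukemia array than on every GFP-positive array. Between the GFP-negative arrays the desmosome genes were scattered. In iPS cells they parted. Dsg2, Pkp2, Jup and Perp were above their leukemia level, by 1.54 to 4.01 on the log2 scale. Dsg3, Dsc3 and Pkp1 were within 0.13 of it, and Dsc2, Dsp and Pkp3 within 0.70.

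**Figure D1:**
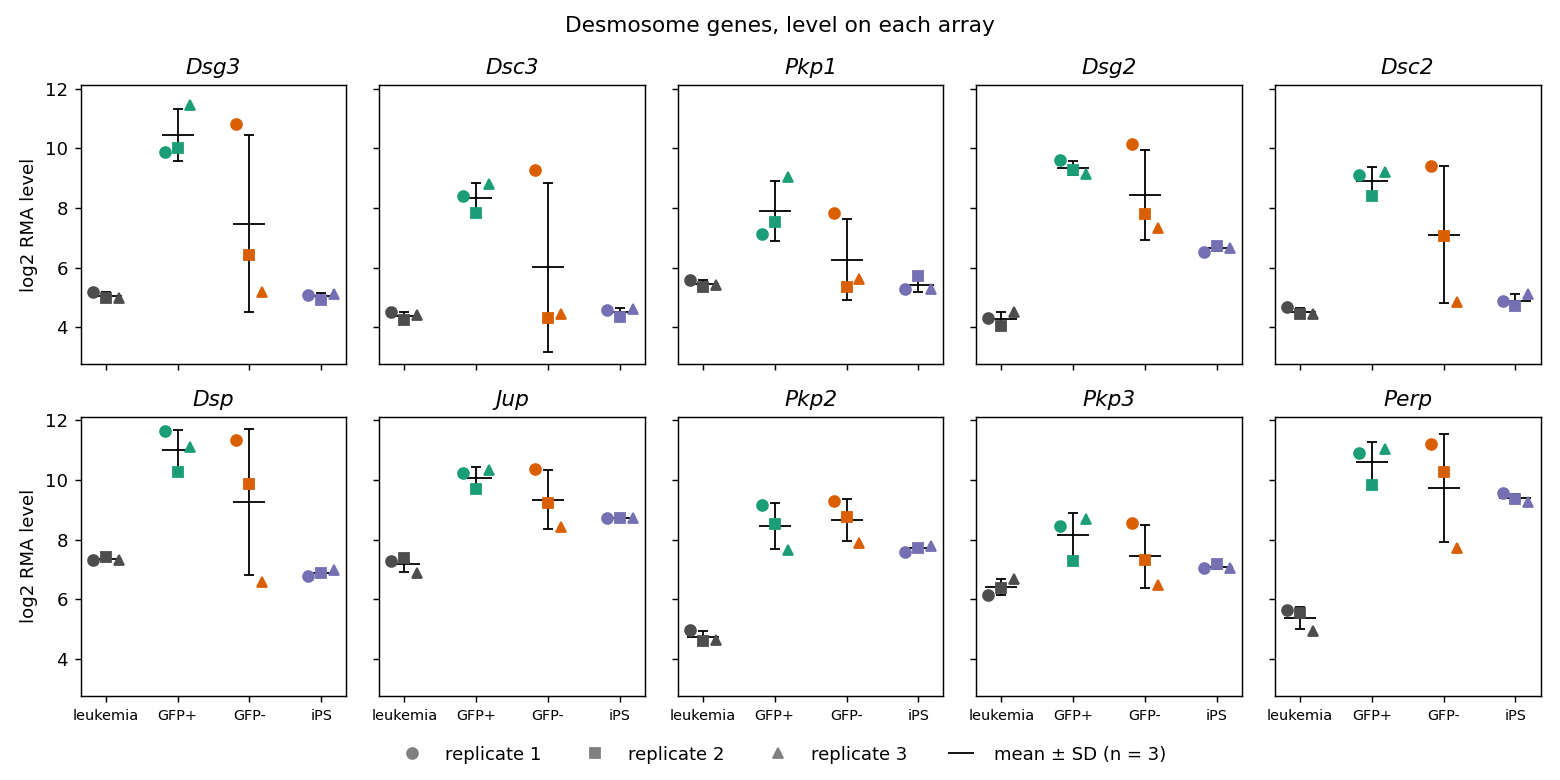
Level of each desmosome gene on each of the 12 arrays (y axis, log2 RMA level) in the 4 groups (x axis), with bars for the mean ± SD of 3 arrays. The leukemia and iPS arrays lie close together, the GFP-positive arrays lie above all leukemia arrays for all 10 genes, and the GFP-negative arrays spread widely for each gene.

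Among the cadherins, Dsg3 showed the widest range. It encodes the desmoglein of the deep layers of stratified epithelium. Dsg3 measured 5.20, 4.98 and 4.97 on the leukemia arrays, 9.88, 10.001 and 11.44 on the GFP-positive arrays, 10.83, 6.41 and 5.19 on the GFP-negative arrays, and 5.10, 4.91 and 5.12 on the iPS arrays. GFP-negative replicate 1 lay inside the GFP-positive range, replicate 2 lay between the groups, and replicate 3 lay inside the leukemia range.

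Dsc3 encodes the desmocollin partner of Dsg3 in the same tissues. It measured 4.51, 4.24 and 4.41 on the leukemia arrays, 8.40, 7.82 and 8.82 on the GFP-positive arrays, 9.26, 4.33 and 4.44 on the GFP-negative arrays, and 4.57, 4.36 and 4.61 on the iPS arrays. Of the GFP-negative arrays, replicate 1 exceeded every GFP-positive array and the other 2 fell inside the leukemia range.

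Dsg2 encodes the most widely distributed desmoglein. It measured 4.31, 4.06 and 4.52 on the leukemia arrays, 9.61, 9.28 and 9.15 on the GFP-positive arrays, 10.15, 7.81 and 7.34 on the GFP-negative arrays, and 6.54, 6.74 and 6.67 on the iPS arrays. Unlike Dsg3 and Dsc3, it had no colony or iPS array within the leukemia range. A second probe set of Dsg2, dimmer on average over the arrays, did not follow this pattern and measured 5.23 to 5.90 over all 12 arrays. On the leukemia arrays the second probe set was the brighter, at 5.23, 5.90 and 5.54. The choice of the brightest therefore rests on the colony and iPS arrays and favours the probe set that is high there. With the mean of both probe sets the GFP-positive difference from leukemia was 2.57 ± 0.29, against 5.05 ± 0.56 for the brightest alone.

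Dsc2, the desmocollin that pairs with Dsg2 in simple epithelia, measured 4.69, 4.44 and 4.46 on the leukemia arrays, 9.12, 8.39 and 9.22 on the GFP-positive arrays, 9.42, 7.07 and 4.84 on the GFP-negative arrays, and 4.87, 4.71 and 5.12 on the iPS arrays. In iPS cells Dsc2 was close to its leukemia level while Dsg2 was not. The iPS difference from leukemia was 0.37 ± 0.84 for Dsc2 and 2.35 ± 0.56 for Dsg2.

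These 4 genes are neighbours. In the order of protein-coding genes in RefSeq (assembly GRCm38.p6, used here for gene order) 9 desmosomal cadherin genes follow each other without another between them, as Dsc3, Dsc2, Dsc1, Dsg1c, Dsg1a, Dsg1b, Dsg4, Dsg3 and Dsg2. The high colony levels were found at both ends of this run. The 5 genes between, Dsc1, Dsg1c, Dsg1a, Dsg1b and Dsg4, are not among the 10 and stayed between 3.5 and 6.7 on every array. Of these 5, Dsg1a was called higher in GFP-positive colonies, with 5.63, 5.44 and 6.67 on the GFP-positive arrays against 4.75, 4.67 and 4.64 on the leukemia arrays (difference 1.22 ± 0.31, limma adjusted p = 0.0156). The Dsg1 copies are near-identical genes whose probe sets may share signal.

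**Figure D2:**
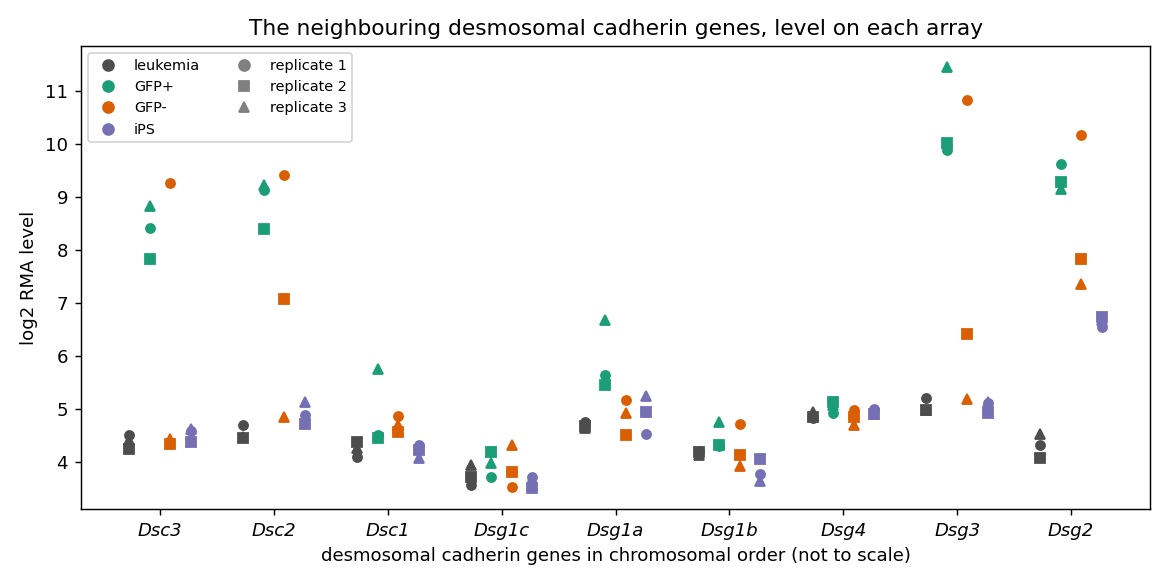
Level (y axis, log2 RMA level) of the 9 neighbouring desmosomal cadherin genes in chromosomal order (x axis, not to scale), with 1 point per array, coloured by group and shaped by replicate. Dsc3 and Dsc2 at one end and Dsg3 and Dsg2 at the other show high GFP-positive arrays, and the 5 genes between them stay low on all arrays.

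In the plaque, desmoplakin and plakoglobin were both high in GFP-positive colonies and differed in iPS cells. Dsp measured 7.33, 7.42 and 7.33 on the leukemia arrays, 11.62, 10.28 and 11.10 on the GFP-positive arrays, 11.34, 9.85 and 6.57 on the GFP-negative arrays, and 6.79, 6.90 and 6.99 on the iPS arrays. GFP-negative replicate 3 and all iPS arrays were below every leukemia array. Jup measured 7.29, 7.38 and 6.88 on the leukemia arrays, 10.23, 9.68 and 10.32 on the GFP-positive arrays, 10.37, 9.23 and 8.42 on the GFP-negative arrays, and 8.73, 8.71 and 8.74 on the iPS arrays. For Jup, which also serves in adherens junctions, every colony and iPS array lay above every leukemia array.

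Of the 10 genes 2, Dsp and Jup, matched the promoter table used here, and their promoters are shown, from 250 bases before to 50 after the gene start, 5′ to 3′ on the strand of the gene (RefSeq, assembly GRCm38.p6). Capitals mark each match to GGGCGG on either strand, the core of the GC box that Sp and Klf family zinc finger proteins can bind. Dsp is at chr13:38151044-38151343 on the plus strand and Jup at chr11:100397741-100398040 on the minus strand.
Dsp: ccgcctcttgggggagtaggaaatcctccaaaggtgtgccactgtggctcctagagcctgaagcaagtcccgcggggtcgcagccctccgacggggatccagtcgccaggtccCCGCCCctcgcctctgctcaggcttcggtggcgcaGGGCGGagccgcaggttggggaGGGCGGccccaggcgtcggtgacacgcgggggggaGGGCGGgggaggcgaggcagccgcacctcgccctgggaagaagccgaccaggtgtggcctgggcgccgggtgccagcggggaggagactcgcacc
Jup: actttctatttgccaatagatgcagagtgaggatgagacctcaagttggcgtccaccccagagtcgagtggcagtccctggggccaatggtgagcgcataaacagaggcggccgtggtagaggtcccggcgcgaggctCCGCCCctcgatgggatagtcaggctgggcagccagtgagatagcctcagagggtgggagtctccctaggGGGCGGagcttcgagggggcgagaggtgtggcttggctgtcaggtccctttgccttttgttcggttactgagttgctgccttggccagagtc

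The Dsp window held 4 matches to GGGCGG and the Jup window 2, and 35.7% of 32851 promoters of the same length held at least 1. The Dsp window was 73.0% G or C and the Jup window 60.7%. The other motifs were also searched on both strands. CACCC, the core of a box that Klf factors can bind, was found once in Dsp and 2 times in Jup (57.5% of promoters hold it). CAGGTG, an E-box form that Snail and Zeb repressors can bind, was found once in Dsp and not in Jup (20.2%). Neither window held CACGTG (7.2%) or TATAAA (13.6%), and no match overlapped another. These are matches of letters and not measured binding sites.

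The plakophilins did not move alike. Pkp1, the stratified-type plakophilin, measured 5.60, 5.36 and 5.41 on the leukemia arrays, 7.12, 7.52 and 9.02 on the GFP-positive arrays, 7.82, 5.35 and 5.63 on the GFP-negative arrays, and 5.29, 5.71 and 5.29 on the iPS arrays. GFP-negative replicates 2 and 3 lay just outside the leukemia range, one below and one above it. Pkp2, the plakophilin of simple epithelia and heart, measured 4.96, 4.61 and 4.64 on the leukemia arrays, 9.17, 8.51 and 7.64 on the GFP-positive arrays, 9.30, 8.77 and 7.89 on the GFP-negative arrays, and 7.59, 7.73 and 7.79 on the iPS arrays. It was the only 1 of the 10 whose GFP-negative mean (8.65 ± 0.71) was above its GFP-positive mean (8.44 ± 0.77, SD, n = 3 each), with overlapping arrays, and no colony or iPS array came near the leukemia level. Pkp3, found in most epithelia, measured 6.15, 6.37 and 6.68 on the leukemia arrays, 8.44, 7.30 and 8.70 on the GFP-positive arrays, 8.56, 7.30 and 6.47 on the GFP-negative arrays, and 7.05, 7.19 and 7.05 on the iPS arrays. Its GFP-positive difference from leukemia was the smallest of the 10.

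Perp encodes a membrane protein that desmosomes of stratified epithelia need and that is also a p53 target. It measured 5.66, 5.53 and 4.94 on the leukemia arrays, 10.90, 9.81 and 11.04 on the GFP-positive arrays, 11.20, 10.25 and 7.73 on the GFP-negative arrays, and 9.54, 9.35 and 9.26 on the iPS arrays. Every colony and iPS array was above the leukemia range, and in iPS cells Perp had the largest difference from leukemia of the 10. Of 14 other measured p53 targets, 8 were called higher and 3 lower in iPS cells than in leukemia, with a median difference of 0.71. Of all 22180 genes 2759 were called higher and 2636 lower. In the GFP-positive colonies, again over leukemia, 6 of the 14 were called higher and 2 lower, with a median of 0.42. Of all genes 2129 were called higher and 2719 lower. The largest differences of the p53 targets were those of Cdkn1a (3.67 ± 0.35), a cell cycle inhibitor, and Eda2r (2.28 ± 0.73).

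**Figure D3:**
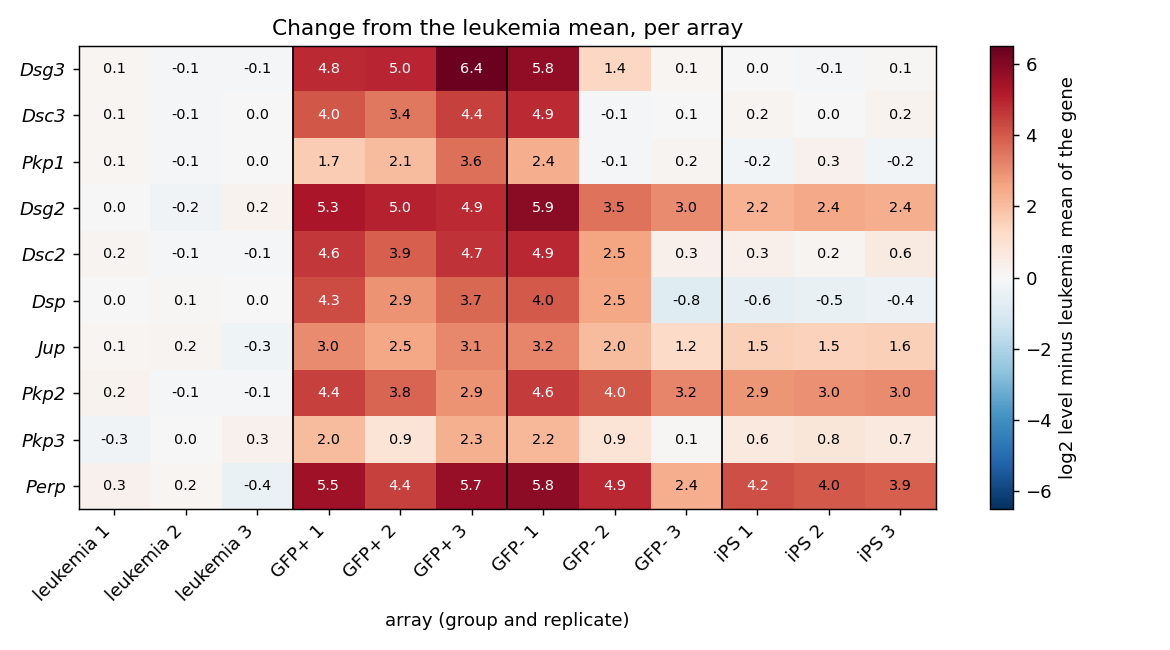
Level of each desmosome gene on each array (columns, grouped as leukemia, GFP-positive, GFP-negative and iPS) minus the leukemia mean of that gene, in log2 units by colour and rounded in each cell. GFP-negative replicate 1 resembles the GFP-positive arrays, GFP-negative replicate 3 is within 0.5 of the leukemia mean for 5 genes, and the iPS arrays are above it mainly for Dsg2, Jup, Pkp2 and Perp.

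Between GFP-positive colonies and leukemia, the comparison of partially reprogrammed colonies with the cells they came from, all 10 genes were called higher, where 9.60% of all genes were. All 3 GFP-positive arrays lay above all 3 leukemia arrays for each of the 10, against 18.1% of all genes. In bulk RNA, more cells expressing a gene and more of its RNA per cell cannot be told apart. The differences were 5.39 ± 1.11 for Dsg3 (42.0-fold), 5.21 ± 0.70 for Perp, 5.05 ± 0.56 for Dsg2 (33.1-fold), 4.38 ± 0.84 for Dsc2, 3.96 ± 1.03 for Dsc3, 3.70 ± 0.39 for Pkp2 (13.0-fold), 3.64 ± 0.91 for Dsp (12.5-fold), 2.89 ± 0.39 for Jup (7.43-fold), 2.43 ± 0.61 for Pkp1 and 1.75 ± 0.48 for Pkp3 (3.36-fold). Their median was 3.83, and that of all genes -0.04. The limma adjusted p ran from 7.94e-05 for Pkp2 to 0.0242 for Pkp3. All 10 were also called without the 2 arrays that stand apart, where 3486 of all genes were called higher. With each array left out in turn the count was 7 to 10, where 1492 to 2994 of all genes were called higher. Over 20 alternative fits Dsc3 was called in 15, Pkp3 in 16, Dsp in 17 and Pkp1 in 18, and the other genes in all 20. In the same comparison all 6 measured T cell markers were called lower, and their part in these differences was not tested.

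Between GFP-negative colonies and leukemia, Perp (4.35 ± 0.70), Dsg2 (4.14 ± 0.56), Pkp2 (3.92 ± 0.39) and Jup (2.15 ± 0.39) were called higher, 4 of 10, where 9.02% of all genes were. These 4 and Dsc2 had all GFP-negative arrays above all leukemia arrays, 5 of 10, against 16.4% of all genes. The other 6 had positive differences that were not called, of 2.58 ± 0.84 for Dsc2 (limma adjusted p = 0.053), 2.43 ± 1.11 for Dsg3, 1.90 ± 0.91 for Dsp, 1.62 ± 1.03 for Dsc3, 1.05 ± 0.48 for Pkp3 and 0.81 ± 0.61 for Pkp1. The SD over the GFP-negative arrays was 1.80 for Perp, 1.51 for Dsg2, 0.98 for Jup and 0.71 for Pkp2, the called genes. For the genes not called it ran from 1.05 for Pkp3 to 2.97 for Dsg3. Without GFP-negative replicate 3, Dsg3, Dsc2, Dsp and Pkp3 were called as well (8 of 10), where 2120 of all 22180 genes were called higher. Without replicate 1 the count was 4, where 2883 of all genes were. The median difference of the 10 was 2.29, and that of all genes -0.01.

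Between iPS cells and leukemia, the 2 ends of the series, the same 4 genes were called higher, Perp by 4.01 ± 0.70, Pkp2 by 2.97 ± 0.39, Dsg2 by 2.35 ± 0.56 and Jup by 1.54 ± 0.39, 4 of 10, where 12.4% of all genes were. The limma adjusted p ran from 0.000298 for Pkp2 to 0.015 for Jup. Of the 10, 6 had all iPS arrays above all leukemia arrays, against 27.8% of all genes, and Dsp had them all below, against 28.7%. For the stratified-type genes the differences were 0.13 ± 1.03 for Dsc3, -0.01 ± 1.11 for Dsg3 and -0.03 ± 0.61 for Pkp1. These standard errors carry the wide spread of the colony arrays, which share the fit. Fitted on the iPS and leukemia arrays alone, Dsp was called lower (-0.47 ± 0.08, limma adjusted p = 0.00137) and Dsc2 (0.37 ± 0.12, adjusted p = 0.0325) and Pkp3 (0.70 ± 0.13, adjusted p = 0.00209) higher, whereas Dsg3, Dsc3 and Pkp1 remained not called. In that fit 5438 of 22180 genes were called higher and 5087 lower, against 2759 and 2636 in the fit to all arrays.

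**Figure D4:**
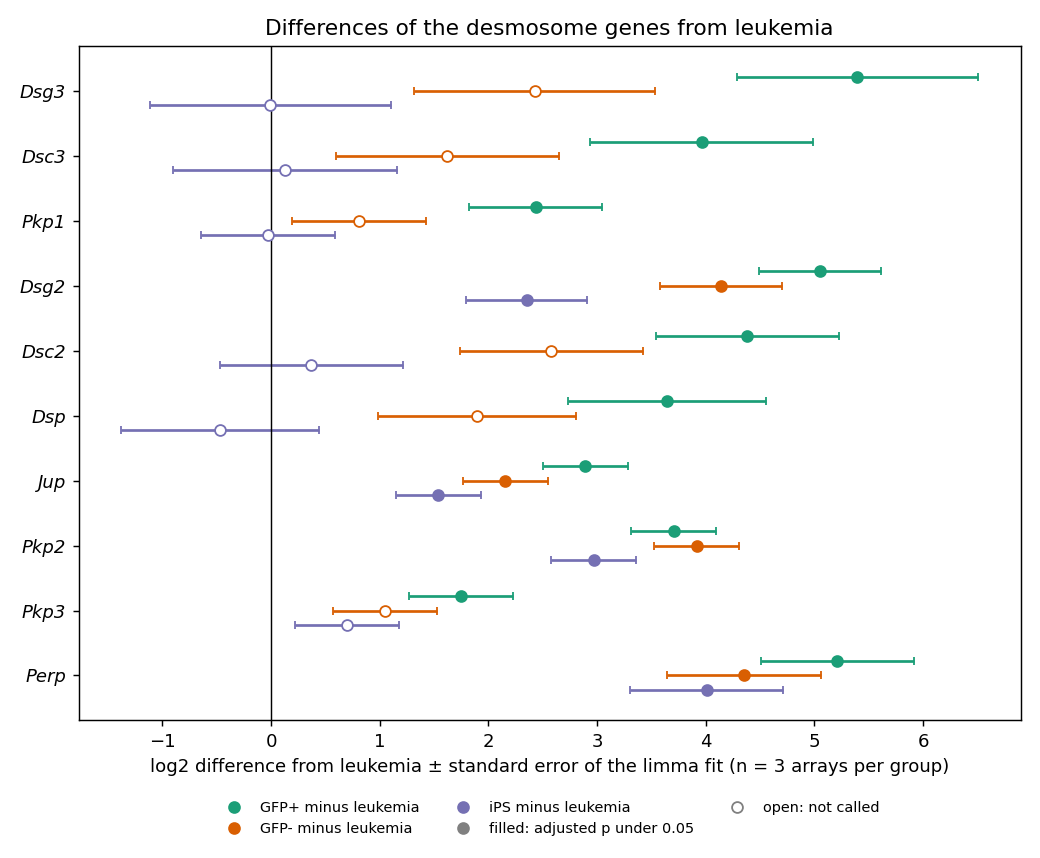
Difference from leukemia of each desmosome gene (y axis) for each of the other 3 groups (x axis, log2 difference ± standard error of the limma fit), with filled points for called differences. All 10 GFP-positive points are filled, and only Dsg2, Jup, Pkp2 and Perp have filled GFP-negative and iPS points.

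No difference between the 2 kinds of colony was called. Between GFP-negative and GFP-positive colonies limma called 0 of the 10 genes and 0% of all genes, with 3 of the 10 (Dsg3, Dsc3 and Pkp1, all lower) and 1413 of all genes at an unadjusted p under 0.05. The differences were -2.97 ± 1.11 for Dsg3, -2.34 ± 1.03 for Dsc3 and -1.62 ± 0.61 for Pkp1, and 0.21 ± 0.39 for Pkp2. The arrays of the 2 groups overlapped for all 10. Of all 22180 genes, 955 had every GFP-negative array above every GFP-positive array, and 494 had every one below. The lowest adjusted p of the 10 was 0.754. GFP-negative replicate 1 was above both other GFP-negative arrays for all 10, above every GFP-positive array for 6 and inside the GFP-positive range for the other 4. GFP-negative replicate 2 was below every GFP-positive array for 7 and replicate 3 for 9. The share of all genes was not computed for these counts of single arrays, so they only describe the 10.

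GFP-negative replicate 1 was the colony array with the lowest mean of the pluripotency list. It was also the highest GFP-negative array for all 10 genes, so leaving it out lowers each GFP-negative mean and is not an independent test. Without it, with only GFP-negative replicates 2 and 3 in that group, 6 of the 10 were called lower in GFP-negative than in GFP-positive colonies. These were Dsg3 (-4.64, adjusted p = 0.0011), Dsc3 (-3.96, adjusted p = 6.65e-05), Dsc2 (-2.95), Pkp1 (-2.40), Dsg2 (-1.77) and Jup (-1.25), in the limma fit, in which 251 of all genes were higher and 768 lower. The same 6 were called with GFP-positive replicate 3 left out as well, which leaves replicates 1 and 2 of that group. Dsp, Pkp2, Pkp3 and Perp were not called in either fit.

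At the median, the 10 genes spread more between colony arrays of a group than all genes did. Their median SD was 0.674 in the GFP-positive group (0.217 for all genes), 1.65 in the GFP-negative group (0.245 for all genes) and 0.109 in the iPS group (0.1 for all genes). In the GFP-negative group the SD ran from 0.71 for Pkp2 to 2.97 for Dsg3.

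Between iPS cells and GFP-positive colonies, 6 of 10 were called lower, where 4.23% of all genes were. These were Dsg3 (-5.40 ± 1.11), Dsp (-4.11 ± 0.91), Dsc2 (-4.01 ± 0.84), Dsc3 (-3.83 ± 1.03), Dsg2 (-2.70 ± 0.56) and Pkp1 (-2.46 ± 0.61), with limma adjusted p from 0.0167 to 0.0411. Jup (-1.35 ± 0.39), Perp (-1.20 ± 0.70), Pkp3 (-1.05 ± 0.48) and Pkp2 (-0.74 ± 0.39) were not called. For every gene but Pkp2, all 3 iPS arrays were below all 3 GFP-positive arrays, 9 of 10, against 17.1% of all genes. The calls rest on few arrays. Over 20 alternative fits Dsg2 and Dsg3 were called in 16, Dsc2 and Dsp in 15, and Dsc3 and Pkp1 in 12. With each array left out in turn, the number of the 10 called lower ran from 0 to 8. The count was 2 without GFP-positive replicate 1, where 340 of all genes were called lower, and 1 without GFP-positive replicate 3 (421 of all genes). It was 0 without any 1 of the iPS arrays (188 to 206 of all genes).

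Between iPS cells and GFP-negative colonies, limma called 0 of the 10 lower, where 1.32% of all genes were. At an unadjusted limma p under 0.05 there were 4 of the 10, all lower, and 4371 of all 22180 genes, 1840 of them lower. The largest differences were those of Dsg3 (-2.43 ± 1.11), Dsp (-2.36 ± 0.91) and Dsc2 (-2.21 ± 0.84), and the lowest adjusted p that of Dsg2 (0.106, difference -1.79 ± 0.56). Dsg2, Dsg3 and Pkp2 had all iPS arrays below all GFP-negative arrays, 3 of 10, against 11.8% of all genes. The 6 comparisons share arrays, so their values are not independent of each other.

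By group means, 6 genes ran from GFP-positive through GFP-negative and iPS to leukemia as the lowest, and Dsg3, Dsp and Pkp1 had iPS as the lowest, without a call between iPS cells and leukemia. Pkp2 alone began with GFP-negative. Most neighbours in these orders were not told apart. Neither the first nor the second step was called for any of the 10, and the arrays overlapped at the first step for all 10 and at the second for all but Dsg2. The lowest step was called for 4 (Dsg2, Pkp2, Jup and Perp), and its arrays overlapped for Dsg3, Dsc3 and Pkp1.

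The stratified-type and general genes were compared on each array by their mean change from leukemia. On the GFP-positive arrays the change of Dsg3, Dsc3 and Pkp1 was 3.51, 3.48 and 4.798, and that of Dsg2 and Dsp 4.79, 3.95 and 4.30. Both kinds were therefore high there, and their order differed between arrays. On the GFP-negative arrays the stratified-type change was 4.34, 0.40 and 0.12, and the general change 4.92, 3.005 and 1.13. The stratified-type average of replicate 2 is one of unlike genes, since Dsg3 was 1.37 above its leukemia mean there and Dsc3 and Pkp1 were at -0.06 and -0.10. On the iPS arrays the stratified-type change was 0.02, 0.03 and 0.04, and the general change 0.84, 0.99 and 1.002. The general change of iPS cells is an average of unlike genes, since Dsg2 was above and Dsp below leukemia on every iPS array.

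The stratified-type minus general change averaged -0.42 ± 0.89 over the GFP-positive arrays, -1.40 ± 1.06 over the GFP-negative arrays and -0.91 ± 0.08 over the iPS arrays (SD, n = 3 each). It is given as a description with no test. With the mean of both Dsg2 probe sets these values were 0.83, -0.42 and -0.32, so that of the GFP-positive group changed sign.

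The stratified-type genes were high on colony arrays whose naive pluripotency list ran from 6.41 to 9.67. That list had means of 8.38, 9.67 and 7.18 for the GFP-positive group and 6.41 for GFP-negative replicate 1, the 4 arrays with a stratified-type change of 3.48 or more. On the 2 arrays with a change under 0.5, GFP-negative replicates 2 and 3, the list averaged 9.43 and 9.81, close to the iPS arrays. GFP-positive replicate 2 had both a high pluripotency list (9.67) and a high stratified-type change (3.48).

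**Figure D5:**
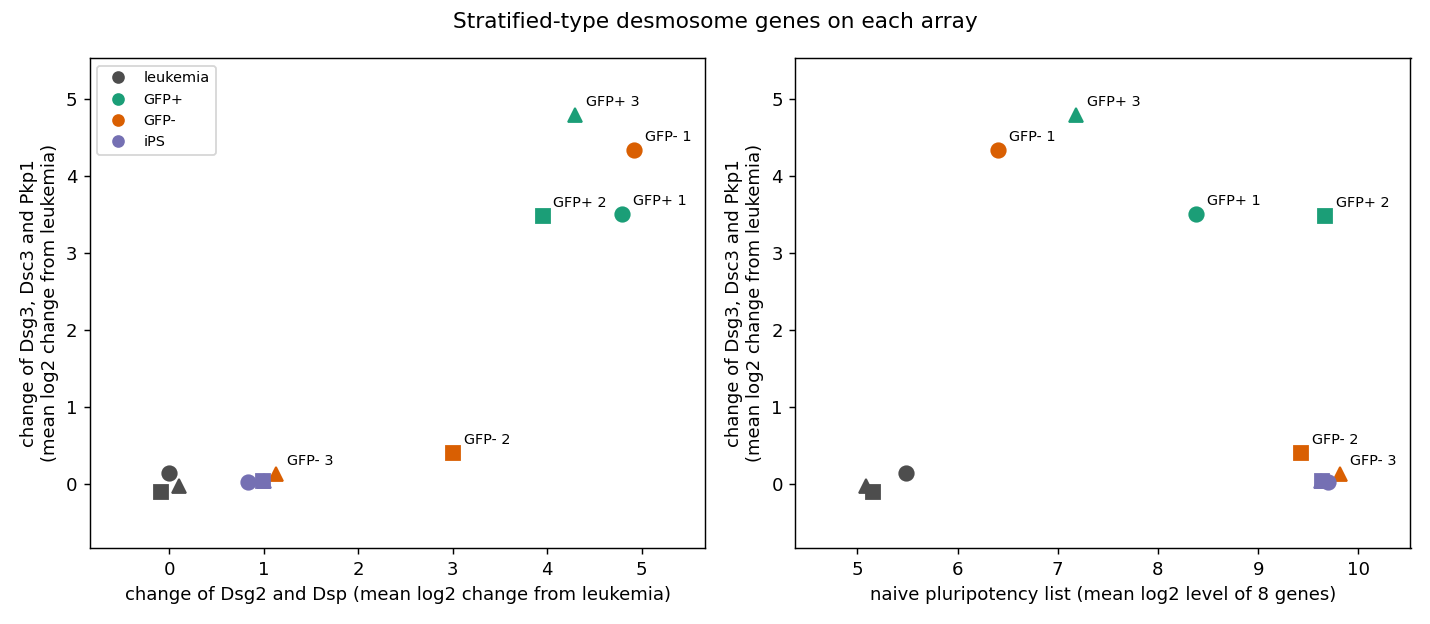
Mean log2 change from leukemia of Dsg3, Dsc3 and Pkp1 on each array (y axis), against the same for Dsg2 and Dsp (x axis, left) and against the mean log2 level of 8 naive pluripotency genes (x axis, right). The GFP-positive arrays and GFP-negative replicate 1 lie high, GFP-negative replicate 2 has a general change of 3.005 and a stratified-type change of 0.40, and the iPS arrays lie near 0 on the y axis.

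Of the desmosome genes outside the list, 9 were measured. In GFP-positive colonies against leukemia 4 were called higher and 0 lower, with a median difference of 0.66. Of all 22180 genes 2129 were called higher and 2719 lower. Ppl, periplakin, a plaque protein related to desmoplakin, had the largest difference (3.24 ± 0.70). Its levels were 5.96, 6.09 and 6.19 for leukemia, 9.48, 8.27 and 10.23 for the GFP-positive group, 9.69, 8.42 and 6.35 for the GFP-negative group, and 6.80, 6.76 and 6.81 for the iPS group. As for Dsp, GFP-negative replicate 3 was the lowest colony array. Pkp4, a plakophilin relative also found at adherens junctions, had another order. It was highest in iPS cells, at 8.497, 8.39 and 8.52 against 6.73, 6.81 and 6.97 in leukemia (1.64 ± 0.18, limma adjusted p = 7.42e-05). Cdsn (0.89 ± 0.26), which encodes corneodesmosin of cornified skin, was called higher in GFP-positive colonies, and Evpl (0.53 ± 0.24), envoplakin, was not.

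Lists of genes for neighbouring structures, which like the 10 genes were chosen with earlier results known, were compared between GFP-positive colonies and leukemia. For these and the lists below, 9.60% of all genes were called higher in that comparison. Of 12 adherens junction genes 10 were called higher (median 2.28), led by Cdh1, E-cadherin (6.46 ± 0.30), and Afdn, the linker afadin (4.02 ± 0.35). Of 12 tight junction genes 10 were called higher (median 2.58), led by Cldn4 (5.79 ± 0.65) and F11r (5.15 ± 0.49). Of 8 genes of the hemidesmosome, which anchors epithelial cells to the matrix below, 6 were called higher (median 2.44), led by Itgb4 (3.64 ± 0.75), an integrin subunit, and Dst, the linker dystonin (3.49 ± 0.23).

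Keratins are the filaments to which desmosomes attach. Of 10 stratified-epithelium keratins 5 were called higher in GFP-positive colonies than in leukemia (median 2.46), led by Krt6a (8.07 ± 1.54) and Krt14 (7.07 ± 1.32). The others were Krt17, Krt16 and Krt6b, and the same 5 were called lower in iPS cells than in GFP-positive colonies. Krt1, Krt4, Krt10, Krt13 and Krt15 were not called higher or lower in GFP-positive colonies. The GFP-positive means of Krt10 (6.84, against 7.19 in leukemia) and Krt4 (5.06, against 5.12) were below leukemia. Krt6a and Krt6b are near-identical copies whose probe sets may share signal. Between iPS cells and leukemia 1 of the 10, Krt17, was called higher (4.03 ± 0.66). Of 8 genes for simple-epithelium keratins and other intermediate filaments, 6 were called higher in GFP-positive colonies, led by Krt18 (5.82 ± 0.80) and Krt8 (5.34 ± 0.87), and 4 in iPS cells (Krt18, Krt19, Vim and Des), each against leukemia. Krt14 measured 12.84, 9.52 and 5.54 on the GFP-negative arrays, against 12.07, 12.36 and 12.93 on the GFP-positive arrays. Its GFP-negative arrays fell in the same order as those of Dsg3.

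Of 10 cornified envelope genes, which encode the hardened shell of dead skin cells, 4 were called higher in GFP-positive colonies than in leukemia (median 0.89), with Sprr1a (4.79 ± 1.02) and Ivl (4.71 ± 1.12) in front of Tgm1 and Lor. Of 14 epithelial transcription factors and splicing regulators 9 were called higher (median 2.67), led by Esrp1 (4.85 ± 0.26), which directs epithelial splicing, and Tfap2a (3.56 ± 0.81). Trp63 was among those not called (0.72 ± 0.25, limma adjusted p = 0.0661). Of 6 repressors of junction genes 1 was called, Zeb1, a repressor of E-cadherin, at a difference of -2.47 ± 0.15. In iPS cells 10 of 12 adherens junction genes were called higher than in leukemia, as in the colonies. So were 4 of 12 tight junction genes (Tjp1, F11r, Cldn4 and Cldn6), beside the 4 of 10 desmosome genes. Of all genes 12.4% were called higher in iPS cells than in leukemia. Genes of these lists given without a value, and Krt4, Krt10, Krt17 and Trp63, were named after their values were seen.

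Between iPS cells and GFP-negative colonies few genes of these lists were called. Cdh2, N-cadherin, was higher in iPS cells (1.5 ± 0.28), as were Vim, the filament protein vimentin (1.38 ± 0.21), and the repressors Twist1 (1.20 ± 0.25) and Snai2 (1.12 ± 0.15). Elf3, an epithelial factor, was lower (-1.22 ± 0.20). The mean of 8 fibroblast markers was 7.44 to 7.58 on the iPS arrays and 5.44 to 6.04 on the GFP-negative arrays, and its part in these differences was not tested.

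Over the 12 arrays, the genes most like the mean of Dsg3, Dsc3 and Pkp1 in pattern, by Pearson's r, were Adgrg7 (0.994), Atp10b (0.989), Serpinb5 (0.989), Ceacam19 (0.986) and Fabp7 (0.985). Serpinb5, which encodes the epithelial serpin maspin, measured 4.34 to 4.59 in leukemia, 9.26, 8.53 and 10.92 on the GFP-positive arrays, 9.63, 5.37 and 3.94 on the GFP-negative arrays, and 4.09 to 4.72 in iPS cells. Most like Dsg2 and Dsp were Efna5, Met, Klf6 and Patj (0.990 each) and B3gnt3 (0.989). Met, the receptor for hepatocyte growth factor, measured 5.06 to 5.44 in leukemia, 9.39, 8.52 and 8.83 on the GFP-positive arrays, 10.09, 8.12 and 6.05 on the GFP-negative arrays, and 6.17 to 6.42 in iPS cells. The 12 arrays fall into 4 groups that share a normalization, so r mainly follows the order of the groups and of the GFP-negative arrays.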

How the data were processed

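The authors deposited log2 levels for every probe set on every array, made by RMA, per the submitters' processing notes. RMA corrects background, quantile-normalizes and summarises probes. Its software, version and any filter are not given in the sources at hand. Array medians were therefore nearly equal (5.76 to 5.82), and a shift of most genes would be removed. Of 41345 probe sets, 23521 had 1 gene symbol in the platform annotation, 1814 several and 16010 none. Those with 1 symbol were used, the brightest over all arrays for the 1082 genes with more than 1, which left 22180 genes. RefSeq held all 10 desmosome genes under the same symbol.

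All 12 arrays entered 1 linear model with a mean for each group (limma 3.58.1, R 4.3.3, moderated by empirical Bayes), from which 6 comparisons were taken. Calls needed an adjusted p (Benjamini-Hochberg, all genes) under 0.05. Tested on simulated data, the fit recovered most changed genes. Where each group kept its own measured spread it made more false calls than the threshold allows, and with equal spread it did not. Over all genes, calls that involve the widely spread colony arrays are therefore less certain than their adjusted p. The simulation did not treat the 10 genes apart. For GFP-positive colonies against leukemia, all 10 stayed called in the fit to these 2 groups alone. Their standard errors were smaller there (Dsg3 0.41 rather than 1.11), and their adjusted p was lower except for Pkp2. The replicate numbers come from the titles. The desmosome genes, the 10 wider lists and the 4 marker lists were chosen with earlier results of these data known. The wider genes named were the other desmosome genes, the 2 called genes of each list with the largest differences in GFP-positive colonies against leukemia and in iPS cells against GFP-negative colonies, and the 5 genes of closest pattern, which exclude the lists and predicted or clone names. Alternatives were a replicate block, cyclic loess, a filter on dim genes, the mean of probe sets, fits to 2 groups, array quality weights, robust moderation, and leaving out arrays. The number of arrays limits the precision.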

Additional observations from a re-analysis of the deposited data

How the results depend on the processing

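Over 1200 recomputed differences of the 10 genes, 49 were no longer called and 47 newly called. The sign differed from the reported one in 20, all of them uncalled in both fits, in 8 of the 60 differences. With array quality weights, 8 genes rather than 4 were called higher in GFP-negative colonies than in leukemia, where 3462 of all 22180 genes were. In that setting 4 rather than 0 were lower in iPS cells than in GFP-negative colonies, where 1002 of all genes were. With the arrays of the 2 groups alone, 1 rather than 0 was lower in iPS cells than in leukemia, where 5087 of all genes were. The 2 arrays that stand apart are GFP-positive replicate 3 and GFP-negative replicate 1. Without them, 6 rather than 0 were lower in GFP-negative than in GFP-positive colonies, where 776 of all genes were. In the same fit 1 rather than 0 was lower in iPS cells than in GFP-negative colonies, where 924 of all genes were. With the mean of all probe sets, the stratified-type minus general change turned from -0.42 to 0.83 in GFP-positive colonies and moved from -0.91 to -0.32 in iPS cells, which is the flat second Dsg2 probe set entering the mean.

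Leaving out each array in turn, the genes called higher numbered 7 to 10 in GFP-positive colonies, 4 to 8 in GFP-negative colonies and 3 to 4 in iPS cells, each against leukemia. Those called lower numbered 0 to 6 in GFP-negative against GFP-positive colonies, 0 to 8 in iPS cells against GFP-positive colonies and 0 to 3 in iPS cells against GFP-negative colonies (1 without GFP-negative replicate 1, 3 without replicate 3). The cause of the other changes was not tested.

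Over the same alternatives, with or without an array, the genes of the whole table called higher numbered 1492 to 3486 (2129 as reported) in GFP-positive colonies, 1364 to 3573 (2001) in GFP-negative colonies and 1978 to 5438 (2759) in iPS cells, each against leukemia. Those called lower numbered 0 to 776 (0) in GFP-negative against GFP-positive colonies, 188 to 2488 (939) in iPS cells against GFP-positive colonies and 46 to 1002 (292) in iPS cells against GFP-negative colonies.

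Cyclic loess moved the share of higher among all called genes to 57.1% (43.9% as reported) in GFP-positive colonies and 53.4% (43.0%) in GFP-negative colonies against leukemia, and to 48.3% (59.2%) in iPS cells against GFP-positive colonies. Of 18 pairs of samples that share a replicate number, 2 had deviations from their group means that correlated over 0.1 (range -0.377 to 0.322). Both paired a GFP-positive with a GFP-negative array, at 0.168 for replicate 1 and 0.322 for replicate 2. Replicate 3 of these groups was at -0.377. With a replicate block 10, 4 and 4 genes were called higher against leukemia. In that fit 5 rather than 6 were lower in iPS cells against GFP-positive colonies, where 774 of all genes were. Between the colonies it called 0 of the 10 and 0 of all genes.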
